A study of Drosophila melanogaster with 19 samples.

Results

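The comparison described here set sorted cells of Drosophila melanogaster embryos that lack tramtrack (ttk) against sorted cells of control embryos. Its arrays were chosen by their sample titles, and 5 of the 19 arrays of the series belong to it, 2 of ttk mutant cells and 3 of control cells. The mutant cells came from embryos homozygous for the loss-of-function allele that the labels write as ttk2D50, recognised by the absence of the Twi-GFP balancer chromosome. The control cells came from embryos without this allele. Both groups carried btl-enh-RFPmoe, a membrane-bound red fluorescent protein driven by the breathless enhancer, and were collected in 1 timed window that spans several stages of embryogenesis. Fluorescent cells were sorted from dissociated pools of embryos, RNA of several sorts was pooled, amplified and hybridised to 1-colour Affymetrix arrays. The enhancer is active in the tracheal system and the ventral midline, and, per the study's own inspection, also in other embryonic cells, so a sample is a mixture of cell types and stages. Fewer cells of a type and less RNA per cell cannot be told apart in such samples. The study's methods call the replicates biological and pooled RNA from sorts of the same week, and the labels name no separate fly cultures, so the p-values measure the spread between these arrays.

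Ttk is a BTB-domain zinc finger protein that represses transcription. In the fly it is best known for holding non-neuronal cells back from neuronal differentiation, and it is also needed in the tracheal system, the branched network of epithelial tubes that carries air through the larva.

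The deposited log2 values had medians of 6.24 and 6.17 on the ttk mutant cell arrays, against 6.84, 6.97 and 6.85 on the control cell arrays. The median difference over all genes, 12679 of them, was -0.67 as deposited. Every array was therefore centred on its own median, and all levels below are log2 expression on a scale where each of the 5 arrays has a median of 6.61. A difference is the mean of the ttk mutant arrays minus the mean of the control arrays on this scale. It was tested with limma over all genes, and a gene is called at a Benjamini-Hochberg adjusted p of 0.05 or below. The 2 mutant arrays correlated at r = 0.987 across genes. Among the control arrays, replicates 1 and 3 correlated at 0.983, and replicate 2 correlated with them at 0.971 and 0.960. Control replicate 2 stood over 1 log2 unit above the mean of the other control arrays at 868 genes and as far below it at 429 genes, the largest such count above it among the 5 arrays. Most genes can be given here only as FlyBase numbers, since 12109 of them (95.5%) were paired with neither a symbol nor a Gene Ontology term in the sources used.

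In ttk mutant cells 447 genes rose and 244 fell relative to control cells, 3.53% and 1.92% of the genes tested by limma at the adjusted threshold and 5.45% in all. By the study's own rule, a log2 difference of at least 1 with an unadjusted p of 0.05 or below, 656 genes were higher and 579 lower. These are 5.17% and 4.57%, and 9.74% in all. Counts by this rule, here and below, come from the centred values and limma p-values used here. The study itself reported fewer candidates for this comparison, with a larger excess of rises. Without centring, 357 genes were called higher and 5627 lower, so the balance of directions and the size of each change rest on the scaling. On the centred scale the called rises had a median of 1.92 (quartiles 1.36 and 2.80) and the called falls a median of -1.47 (quartiles -2.12 and -1.14). A change of 8-fold or more was measured at 96 of the 447 rises and at 14 of the 244 falls.

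The called genes did not overlap between groups at any of the 691 genes, although non-overlap by itself was common. Both mutant arrays lay above all control arrays at 22.5% of all genes and below them at 18.6%. Between the lowest mutant value and the highest control value of a called rise lay a median of 1.52 log2 units. For 354 of the 447 rises this gap was over 1. For the falls the median gap was 1.15, and 155 of 244 had a gap over 1.

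**Figure D1:**
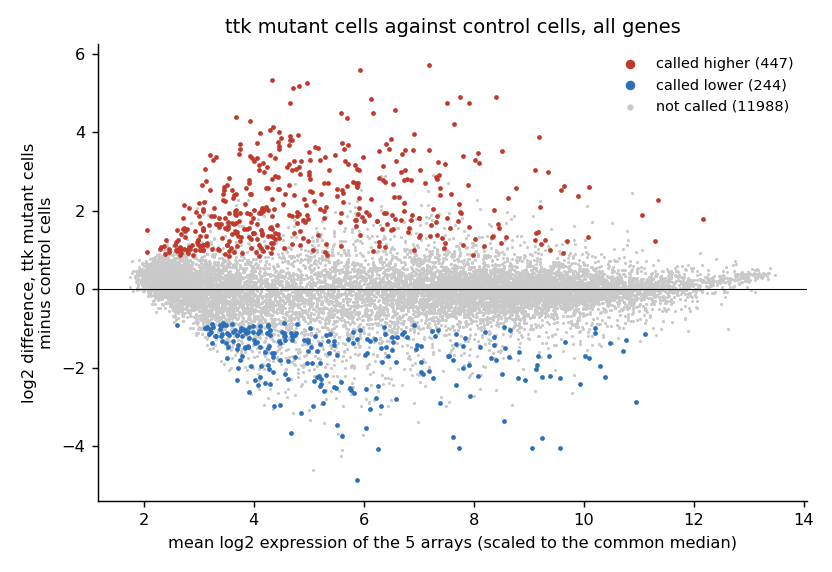
Log2 difference (ttk mutant cells minus control cells, vertical axis) against the mean log2 expression of the 5 arrays (horizontal axis), with 1 point per gene. Red points are the 447 genes called higher, blue points the 244 called lower and grey points the genes not called, and most red points lie at mean levels below the common median of 6.61.

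Called genes of both directions came mainly from genes of low level. Genes were split into 4 bins of equal size by their mean over the 5 arrays. Bin 2, with means of 3.58 to 6.58, held 246 of the called rises, 7.76% of its genes. The lowest bin held 106 rises, bin 3 held 74 and the highest bin 21, or 3.34%, 2.34% and 0.662% of their genes. The falls were spread alike, with 146 in bin 2 (4.61% of its genes). The lowest bin held 27 falls, bin 3 held 47 and the highest bin 24, or 0.852%, 1.48% and 0.757%. The median level of the called rises was 6.07 in mutant cells and 3.67 in control cells. Genes with exactly equal values on arrays of 1 group made up 27.1% of all genes and 44% of the called genes. In the lowest bin they made up 64.6%. When these genes were left out of the fit, 276 genes were called, 173 higher and 103 lower. All 276 were also called with them.

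The largest changes without an annotation were over 4 log2 units in both directions. FBgn0033108 measured 10.80 and 10.44 in mutant cells, against 5.74, 5.43 and 3.53 in control cells, a difference of 5.72 ± 0.69 (SE, limma adjusted p = 0.0164). FBgn0038846 measured 9.41 and 9.16 in mutant cells, against 3.19, 4.29 and 3.62 in control cells, a difference of 5.58 ± 0.35 (limma adjusted p = 0.00379). Both genes were below the common median on every control array and well above it on both mutant arrays. In the other direction, FBgn0028940 measured 2.76 and 3.16 in mutant cells and 8.14, 7.91 and 7.41 in control cells, a fall of -4.86 ± 0.28 (limma adjusted p = 0.00293). FBgn0039670 measured 3.79 and 3.83 in mutant cells and 7.57, 8.81 and 7.28 in control cells, a fall of -4.07 ± 0.48 (limma adjusted p = 0.015). Both genes were above the common median on every control array and far below it on both mutant arrays. These 4 genes carry no name in the sources used here.

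The ttk transcript itself was not reduced. It measured 10.86 on both mutant arrays, against 10.11, 9.99 and 9.99 on the control arrays. The mutant arrays lay above all control arrays, by 0.83 ± 0.16 (SE), and the gene fell just outside the threshold (limma adjusted p = 0.0506). The last gene inside it had an adjusted p of 0.0497. On the values as deposited the difference was 0.15 (limma adjusted p = 0.241). The position of the lesion in this allele relative to the probes is not given in the sources used here, so the transcript level does not check the genotype.

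The cells were checked against the marker genes that could be paired with a row. Trachealess (trh), the transcription factor that specifies tracheal identity, measured 9.70 and 9.35 in mutant cells, against 10.31, 10.18 and 8.38 in control cells. The FGF receptor breathless (btl), whose enhancer drove the sorted fluorescence, measured 8.91 and 8.63 in mutant cells, against 8.59, 8.25 and 6.91 in control cells. Single-minded (sim), the master regulator of the midline, measured 7.69 and 7.94 in mutant cells and 8.84, 7.99 and 7.14 in control cells. Control replicate 3 was the lowest of the 5 arrays for trh, btl and sim. On control arrays trh stood at the 83.8th percentile of all genes, sim at the 64.3th and btl at the 63.3th, a rank among probes that does not measure detection. None of them was called, with differences of -0.10 ± 0.62 for trh, 0.85 ± 0.52 for btl and -0.17 ± 0.50 for sim (SE, limma adjusted p = 0.952, 0.424 and 0.884).

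The fusion cell factor dysfusion (dys) was low, at 4.48 and 3.77 in mutant cells and 5.37, 5.04 and 4.17 in control cells, a difference of -0.74 ± 0.43 (limma adjusted p = 0.4). Markers of other tissues gave the following levels, without a measure of detection. The mesodermal factor twist (twi) measured 6.15 and 7.42 in mutant cells and 6.15, 6.26 and 7.99 in control cells, so that mutant replicate 2 and control replicate 3 stood apart from the other 3 arrays. The muscle factor Mef2 was highest on the same pair of arrays, at levels between 5.43 and 5.82 in mutant cells and between 5.35 and 6.23 in control cells. Serpent (srp), a GATA factor of blood cells and fat body, measured 9.83 and 9.79 in mutant cells, below the 10.65, 9.95 and 10.30 of control cells. Its difference of -0.48 ± 0.25 was not called (limma adjusted p = 0.344). The fat regulator Adp differed by 0.28 ± 0.32 (limma adjusted p = 0.675). None of the 8 markers other than ttk passed the threshold, with SEs of 0.25 to 0.69. The part of the cell mixture in the results was not tested.

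**Figure D2:**
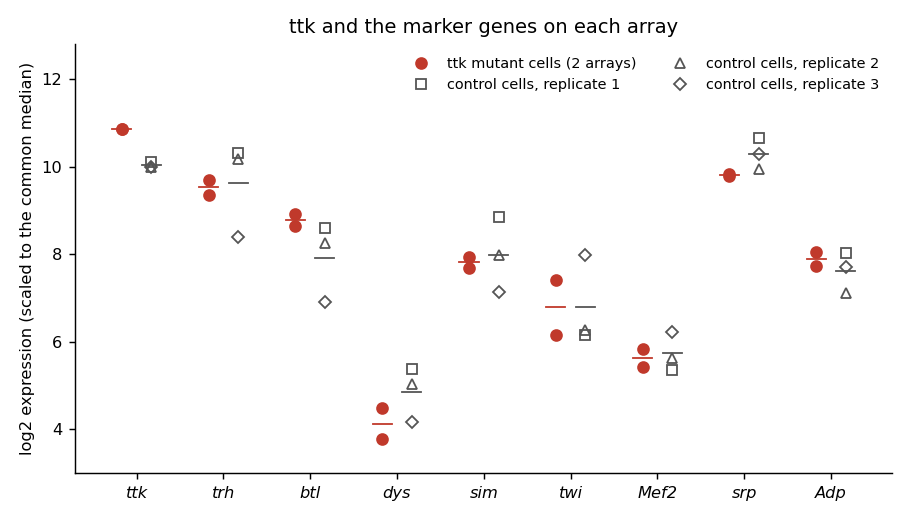
Log2 expression (scaled to the common median, vertical axis) of ttk and the 8 marker genes, with red points for the 2 ttk mutant cell arrays, open grey symbols for the 3 control cell arrays and a short line for each group mean. The mutant points of ttk coincide at 10.86 above all control points, and control replicate 3 (diamonds) is lowest for trh, btl and sim.

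Only 103 other rows could be given a single symbol from the reference gene table, and 3 of these were called, beside 5.45% of all genes. CG11458 measured 5.05 and 5.23 in mutant cells, against 2.63, 2.55 and 2.94 in control cells, a rise of 2.43 ± 0.20 (SE, limma adjusted p = 0.00622). NT5E-2, whose name is that of an ecto-5'-nucleotidase, measured 5.55 and 4.99 in mutant cells, against 3.37, 4.04 and 3.65 in control cells, a rise of 1.58 ± 0.29 (limma adjusted p = 0.0437). Treh, the trehalase that splits the blood sugar of insects, measured 6.87 and 7.02 in mutant cells, against 8.44, 8.64 and 8.08 in control cells, a fall of -1.44 ± 0.23 (limma adjusted p = 0.0302). All 3 genes had groups that did not overlap, as had every called gene. Of these named rows 40 had a control mean below 3.5, and 31 of them had a difference above 0, with a median of 0.40. Of these 40 genes 1 was called.

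A further 460 rows are listed under Gene Ontology terms in the study's supplementary material, which supplied their annotation here. Of these 61 were called higher and 2 lower, beside 3.53% and 1.92% of all genes. The lists were made by the study from genes that changed in 1 of its own comparisons or in S2 cells, a fly cell line, after ttk knock-down. Some of their rows are held only in part. Of the 52 genes listed as higher from the mutant cells compared here, 30 were called higher. The excess over all genes therefore follows in part from how the lists were drawn and is no independent evidence.

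Genes of G-protein coupled receptor signalling were higher in mutant cells and formed 1 of the groups that the study listed from them. These receptors span the membrane and pass signals of hormones, neuropeptides, amines or light to G proteins. The study chose this list on the same arrays, so its direction is given as a description and is not independent evidence. All 29 listed genes held had a higher mean in mutant cells, and their median difference was 2.11, against 0.01 over all genes. Of these 18 were called higher, beside the 3.53% of all genes. Mutant replicate 1 had the highest value of the 5 arrays at 27 of the 29 genes, and the median of the list was 7.47 and 6.67 on the mutant arrays, against 4.95, 5.31 and 4.71 on the control arrays.

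The member with the largest fitted difference, FBgn0004841, measured 8.69 and 7.89 in mutant cells, against 3.47, 4.44 and 3.46 in control cells, a rise of 4.50 ± 0.41 (SE, limma adjusted p = 0.00888). FBgn0004572, listed also under serotonin receptor signalling, measured 6.58 and 6.03 in mutant cells and 1.62, 2.19 and 1.93 in control cells. Its control mean of 1.91 lay below 2.19, the 5th percentile of the control means of all genes. Its fitted difference of 4.39 ± 0.27 (limma adjusted p = 0.00347) is therefore no measured fold, since the control level may be background. FBgn0085413 measured 6.49 and 6.10 in mutant cells and 2.62, 2.49 and 2.60 in control cells, a rise of 3.72 ± 0.19 (limma adjusted p = 0.0029). Its deposited values were exactly equal on the control arrays, so this SE does not rest on a measured control spread. A member with a high control level was FBgn0037960, at 8.96 and 8.73 in mutant cells and 7.89, 7.68 and 7.68 in control cells, and it rose by 1.10 ± 0.18 (limma adjusted p = 0.0341). Control levels of the list thus ran from below 3 to above the common median. The list's lowest member, FBgn0004366, differed by 0.99 ± 0.38 and was not called (limma adjusted p = 0.22). Without the genes that had equal values, 20 of the list remained and 7 were called higher, and without control replicate 2 there were 14 calls among the 29.

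**Figure D3:**
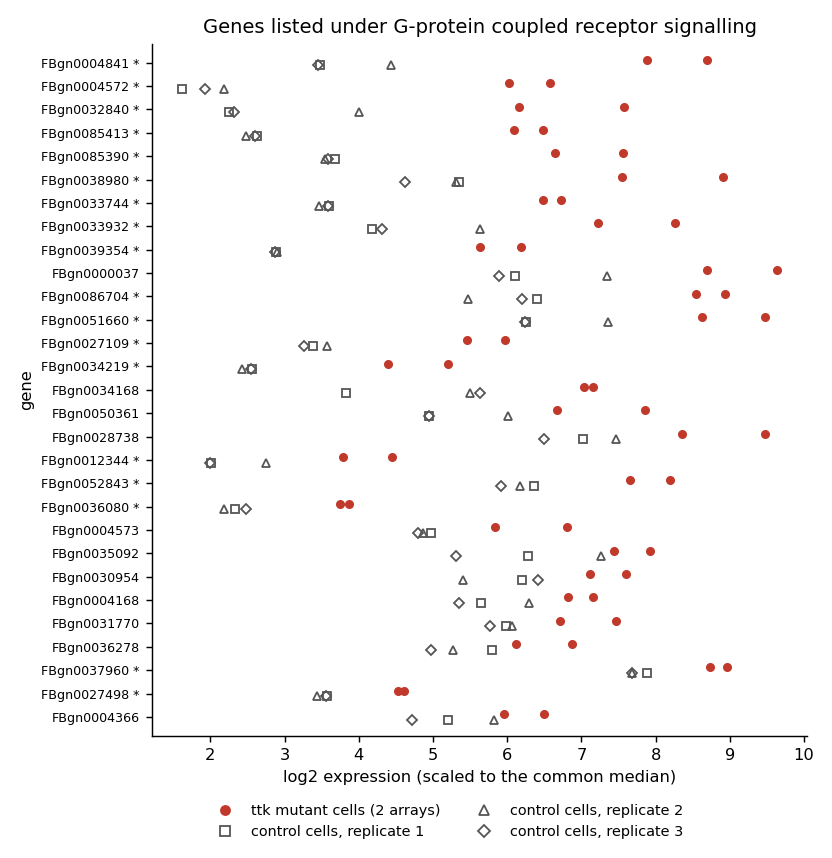
Log2 expression (scaled to the common median, horizontal axis) of the 29 genes listed under G-protein coupled receptor signalling, with 1 line per gene in order of the difference. Red points are the 2 ttk mutant cell arrays, open grey symbols the 3 control cell arrays, and an asterisk marks the 18 genes called higher. Both mutant points lie to the right of all control points for all 29 genes, beside 22.5% of all genes. The study drew this list from these same arrays as higher in mutant cells.

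The measures of these 29 genes on other arrays were not used by the list. In whole ttk mutant embryos 23 of them had a higher mean than in control embryos, beside 49.3% of all genes. Their median difference was 0.68. There 9 passed the study's rule as higher and 0 as lower, beside 5.56% and 3.2% of all genes. Of the 447 genes called higher in cells, 78.5% had a higher mean in embryos and 34.9% passed the rule as higher. The list was thus near the called rises in general there. In sorted cells that over-express ttk the median difference of the 29 genes from control cells was 0.21. By the same rule 3 were higher and 0 lower, beside 1.51% and 1.01% of all genes and 3.58% and 2.24% of the called rises. Of the 29 genes 19 had a higher mean than in their controls, beside 38.4% of all genes and 51.9% of the called rises. Response to stimulus, also listed by the study from the mutant cells, had 15 of 30 genes called higher with a median of 1.62, beside 3.53% of all genes. Serotonin receptor signalling had 1 of 3. The response to stimulus gene with the largest fitted difference, FBgn0005614, measured 8.13 and 7.70 in mutant cells and 2.79, 2.66 and 2.78 in control cells, a rise of 5.17 ± 0.20 (SE, limma adjusted p = 0.0029). Its deposited values were exactly equal on the control arrays, so its small SE does not rest on a measured control spread, and the control level may be background.

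The lists that the study drew from whole mutant embryos, that is from other arrays than those compared here, hold genes of oogenesis, of the maternal axis system, of the cell cycle and of other terms. Transcripts of oogenesis and of the maternal axis are made in the fly ovary, where they polarise the egg, organise the oocyte nucleus and build the eggshell. Over the 80 genes held under any of these terms, 18 (22.5%) were called higher in mutant cells and 0 lower, beside 3.53% and 1.92% of all genes. Their median difference was 0.74. The study listed these genes as higher in mutant embryos. Of all 705 genes higher in embryos by the study's rule, 156 (22.1%) were called higher in cells. The share of the list is thus near that of embryo rises in general and is not particular to its terms. Of 28 genes of female gamete generation, held in part, 7 were called higher, with a median of 0.66. For this list the median on the deposited values was -0.025, with 6 calls higher and 8 lower. Over all 80 genes the median on the deposited values was 0.06, with 16 calls higher and 11 lower, so their balance depends on centring. Groups did not overlap, with mutant cells above, at 46 of the 80 genes, beside 22.5% of all genes. The share among all embryo rises is not given here.

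Of 16 genes of anterior/posterior axis specification, a list held whole, 6 were called higher and 0 lower, beside 3.53% and 1.92% of all genes, with a median of 1.19. This list, and those of oskar mRNA translation, karyosome formation and the cell cycle, came from genes higher in mutant embryos. Of all genes higher in embryos by the study's rule, 22.1% were called higher in cells. FBgn0000166 measured 5.77 and 6.36 in mutant cells and 2.65, 2.94 and 2.58 in control cells, a rise of 3.34 ± 0.25 (SE, limma adjusted p = 0.00483). FBgn0004882, listed also under regulation of oskar mRNA translation, measured 6.82 and 6.82 in mutant cells and 3.32, 3.71 and 3.58 in control cells, a rise of 3.28 ± 0.19 (limma adjusted p = 0.00293). Both genes were over 2 units below the common median on every control array and close to it on both mutant arrays. Of the 7 genes of regulation of oskar mRNA translation 3 were called higher, beside the same 3.53% and 22.1%, with a median of 1.30. Of the 7 genes of karyosome formation, the packing of the oocyte's chromosomes, 3 were likewise called higher, with a median of 1.93. There FBgn0033921, listed also under transposition, rose by 3.42 ± 0.38 (limma adjusted p = 0.0131), at 6.99 and 8.04 in mutant cells and 3.88, 4.48 and 3.95 in control cells. Mutant replicate 2 had the highest value of the 5 arrays at 11 of the 16 axis genes and 6 of the 7 karyosome genes, the reverse of the receptor list.

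Of 28 listed genes of the cell cycle, a list held in part, 10 were called higher and 0 lower, beside 3.53% and 1.92% of all genes. Of all embryo rises by the study's rule 22.1% were called higher. The median of the list was 1.00. On the deposited values 8 were higher and 4 lower, with a median of 0.32. FBgn0002645 measured 9.08 and 8.96 in mutant cells and 5.31, 5.56 and 5.56 in control cells, a rise of 3.55 ± 0.18 (SE, limma adjusted p = 0.0029). Its values were nearly uniform within both groups, and the other called members rose by less. Without the genes of equal values 3 of 15 were called.

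Genes of chitin metabolism did not pass the test on the centred scale. Chitin is the polysaccharide of the cuticle and of the filament that fills the growing tracheal tube, and the study drew the list from embryos that over-express ttk. Of its 27 genes, held whole, 0 were called by limma in either direction, and the median difference was -0.30, or -0.07 without control replicate 2. On the deposited values 8 were called lower and 0 higher, with a median of -0.98. The median was -1.10 over the 16 genes without equal values and -1.36 over the 10 genes above the 25th percentile of level, with 0 calls in both. Control replicate 2 had the highest value of the 5 arrays at 11 of the 27 genes. FBgn0036952 shows this, at 2.32 and 2.52 in mutant cells and 3.48, 8.72 and 3.92 in control cells, a difference of -2.95 ± 1.62 (limma adjusted p = 0.376). The largest difference was that of FBgn0038646, at 3.24 and 3.40 in mutant cells and 7.33, 8.24 and 5.43 in control cells, or -3.68 ± 0.81 (SE, limma adjusted p = 0.0713). Its groups did not overlap, and the control arrays differed widely among themselves. Vajk4, chosen after its values were seen, showed the same stand-out of control replicate 2, at 4.96 and 4.78 in mutant cells and 5.59, 9.71 and 5.20 in control cells.

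**Figure D4:**
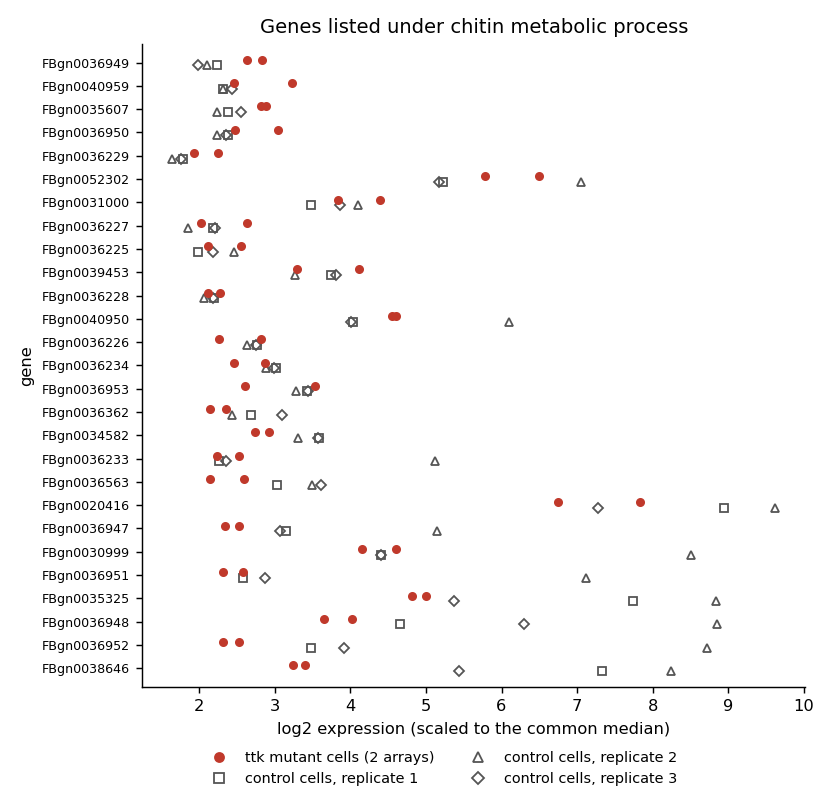
Log2 expression (scaled to the common median, horizontal axis) of the 27 genes listed under chitin metabolic process, with 1 line per gene in order of the difference. Red points are the 2 ttk mutant cell arrays and open grey symbols the 3 control cell arrays. For several of the lower lines control replicate 2 (triangles) stands far to the right of the other arrays, and none of the 27 genes was called.

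Proteases and other proteolysis genes, also listed from over-expressing embryos and held in part, moved in both directions. Of 28 genes 6 were called higher and 1 lower, beside 3.53% and 1.92% of all genes, with a median of 0.22. On the deposited values 6 were higher and 8 lower, with a median of -0.47. FBgn0010357 measured 7.02 and 6.59 in mutant cells and 2.94, 2.81 and 3.11 in control cells, a rise of 3.85 ± 0.21 (SE, limma adjusted p = 0.0029). FBgn0003863 rose by 3.58 ± 0.23 (limma adjusted p = 0.00398), at 6.90 and 6.30 in mutant cells and 3.06, 2.98 and 3.04 in control cells. The protease that fell, FBgn0032413, measured 2.51 and 2.32 in mutant cells and 3.70, 3.96 and 3.69 in control cells, a difference of -1.37 ± 0.18 (limma adjusted p = 0.0212). Both examples that rose were near 3 on every control array, and both had exactly equal deposited values on some control arrays. Without the genes of equal values 2 of 11 were called higher and 0 lower, and the median was 0.001.

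The 9 genes of cell fate commitment, which the study listed as lower in embryos over-expressing ttk, had a median difference of 0.57 in mutant cells, or -0.11 on the deposited values. Of these FBgn0004170 was called. It measured 8.40 and 8.42 in mutant cells and 5.47, 5.25 and 6.16 in control cells, a rise of 2.78 ± 0.31 (SE, limma adjusted p = 0.013). In over-expressing cells all 9 genes had a lower mean than in their controls, with a median of -0.88, and 2 passed the study's rule as lower. Over all genes 38.4% had a higher mean there, and 1.01% passed the rule as lower. The sorted over-expressing cells share no array with the mutant cells or with the embryos on which the list was drawn. They carry the same over-expression as those embryos, however, so their falls in part repeat how the list was drawn. The share among all genes lower in over-expressing embryos is not given here. Of the 223 genes listed from the S2 cell knock-down as higher, 13 (5.83%) were called higher in mutant cells and 0 lower, beside 3.53% and 1.92% of all genes, with a median of 0.07. On the deposited values 9 were higher and 108 lower, with a median of -0.61. Without control replicate 2 there were 5 calls, and without the genes of equal values 7 among 176. Of the 48 listed as lower there, 1 was called higher and 0 lower, against 0 higher and 24 lower on the deposited values.

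The same mutation was profiled in whole embryos, on 2 arrays of ttk mutant embryos and 2 of control embryos that share no array with the sorted cells. There limma called 0 genes at the adjusted threshold and 1347 at an unadjusted p of 0.05 (10.6%). Of the 447 genes called higher in cells, 351 (78.5%) also had a higher mean in mutant embryos, beside 49.3% of all genes. By the study's rule 156 of them were higher in embryos, which is 34.9% of the cell list and 22.1% of the 705 genes higher in embryos. Of the 244 genes called lower in cells, 47 were lower in embryos by this rule, 19.3% of the cell list and 11.6% of the 406 embryo genes. The opposite call was made at 8 of the 447 rises (1.79%) and 0 of the 244 falls. Over all genes 5.56% were higher and 3.2% lower in embryos by this rule.

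**Figure D5:**
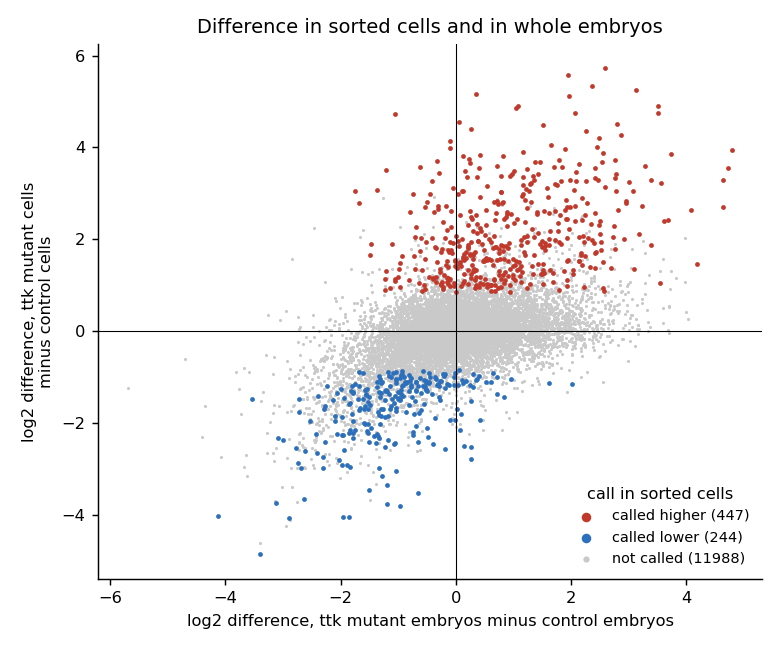
Log2 difference in sorted cells (ttk mutant minus control, vertical axis) against the difference in whole embryos (ttk mutant minus control, horizontal axis), with 1 point per gene coloured by its call in sorted cells. Of the 447 red points 351 lie to the right of 0, and of the 244 blue points 28 do.

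Whether the change differed between cells and embryos was tested as a contrast in 1 limma fit of all 9 arrays. It was called at 31 genes (0.244%), 25 higher in cells (0.197%) and 6 lower in cells (0.0473%). Of the 447 genes called higher in cells 24 were among them, and of the 244 called lower 0 were. FBgn0005614 had differences of 5.17 ± 0.20 in cells and 0.35 ± 0.47 in embryos (SE), and the contrast was 4.82 ± 0.49 (limma adjusted p = 0.0202). For FBgn0004572 of the serotonin receptor list the differences were 4.39 ± 0.27 in cells and 0.27 ± 0.29 in embryos, with a contrast of 4.13 ± 0.39 (limma adjusted p = 0.0173). The maternal axis gene FBgn0000166 changed by 3.34 in cells and 2.77 in embryos, and its contrast of 0.58 ± 0.59 was not called (limma adjusted p = 0.702). These contrasts rest on single arrays. Without any 1 of the sorted-cell or mutant embryo arrays at most 1 gene was called, against 17 genes without replicate 2 of the control embryos and 2300 genes without their replicate 1.

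Sorted cells over-expressing ttk were compared with their own controls, 2 arrays of each, and the labels give a higher temperature for them, which the study's methods do not mention. The titles and the methods give these controls as carrying btl-GAL4, while their strain label names the ttk allele. There limma called 0 genes at the adjusted threshold and 1534 at an unadjusted p of 0.05 (12.1%). The genes called in mutant cells had no common direction there. Of the 447 rises 232 (51.9%) had a higher mean in over-expressing cells, beside 38.4% of all genes. The study's rule took 16 of them as higher (3.58%) and 10 as lower (2.24%). Of the 244 falls 119 (48.8%) had a higher mean there, and the rule took 10 as higher (4.1%) and 4 as lower (1.64%). Over all genes the rule took 1.51% as higher and 1.01% as lower, so each of these shares lay above that of all genes. Treh, which fell in mutant cells, differed by 1.02 ± 0.25 in over-expressing cells (SE, limma adjusted p = 0.351), and FBgn0028940, the largest fall, by 1.17 ± 0.22 (limma adjusted p = 0.308). Of the rises, FBgn0004882 differed by -1.45 ± 0.39 there (limma adjusted p = 0.359), FBgn0033744 by 1.85 ± 0.26 (limma adjusted p = 0.29) and FBgn0003483 by 1.11 ± 0.36 (limma adjusted p = 0.395). None of these 5 differences passed the threshold.

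The number of called genes moved by over 1.5 times without each array other than control replicate 3. Without mutant replicate 1 or 2 limma called 60 and 136 genes, and without control replicate 1, 2 or 3 it called 181, 393 and 696. With 1 mutant array left, that array is assumed to vary like the control arrays. In all, 57 genes were called in all 5 of these fits, 51 higher and 6 lower. Among the annotated genes these included FBgn0005614, FBgn0004572, FBgn0085413, FBgn0000166, FBgn0004882, FBgn0003733, FBgn0002645, FBgn0010357 and FBgn0003863, so the receptor, maternal axis, cell cycle and proteolysis lists each kept at least 1 member. Of these genes FBgn0005614, FBgn0085413 and both of proteolysis, FBgn0010357 and FBgn0003863, had exactly equal deposited values on control arrays. Their small control spread, which helps them stay called, may not measure variation between arrays. The direction of the annotated and extreme called genes, 70 in all, was the same under every alternative tried for which they were tested. Only 6 of the 70 stayed called under all of these alternatives. The constant direction is no added support, since it follows largely from the calling. No called gene had overlapping groups, so leaving out 1 array cannot turn its sign, and filters or moderation leave the estimate unchanged. The smallest called difference, 0.85 in size, also exceeded the shift of 0.67 from centring.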

How the data were processed

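RNA of sorted cells was measured on Affymetrix Drosophila Genome arrays, and groups were taken from the sample titles. The authors deposited log2 values, 1 per array and FlyBase gene, with probes regrouped by a custom chip definition based on ENSEMBL genes. RMA is named in the submitters' processing notes. The scaling between groups is not stated, and per the supplementary text the groups were not normalized to each other at an early step. Of the rows, 12679 genes were used and 182 control features left out. The authors dropped a further mutant cell array on quality metrics, and it is not analysed here. No genome build is given in the sources used here.

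Each array was centred on its median. Alternatives changed the scaling, filters, moderation, array weights, samples fitted and replicate block. Two-sided limma 3.58.1 (R 4.3.3) with empirical Bayes moderation was fitted to the 5 arrays, with Benjamini-Hochberg adjustment over all genes. The contrast with embryos used the 9 arrays of the mutant experiment. The code was tested on simulated data. Precision is set by 2 and 3 arrays per group, for which no exact permutation test can reach 0.05, so none was run.

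The arrays, lists and tests were chosen with earlier results of these data known. By rule, named genes were ttk, the 12 largest called rises and falls with a symbol other than a CG or CR number, the 3 largest of any name, and called members of the symbol lists. Few genes had symbols, so CG11458, the markers and the members of Gene Ontology lists were named after their values were seen, and only 2 unannotated genes per direction are given. Of 34 symbol lists none had 80% of its genes paired with a row (at most 16.7%), so none was used. The Gene Ontology terms come from the study's supplement, where 173 of 262 rows are held only in part. The authors' own fold changes and p-values were not used, and no sequence was used.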

Additional observations from a re-analysis of the deposited data

Results flagged for a closer look

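The change in ttk mutant cells differed from the change in ttk mutant embryos at 4 of the annotated genes, by the limma contrast over 9 arrays. The contrast, cells minus embryos on the log2 scale, was 4.82 for FBgn0005614 (limma adjusted p = 0.0202) and 4.13 for FBgn0004572 (limma adjusted p = 0.0173). It was 2.95 for FBgn0033744 of the receptor list (limma adjusted p = 0.0248) and 2.93 for FBgn0000242, listed under response to stimulus (limma adjusted p = 0.0432). FBgn0033744 measured 6.73 and 6.48 in mutant cells and 3.60, 3.46 and 3.58 in control cells, with a difference of 0.10 ± 0.33 (SE) in embryos. The deposited values of FBgn0033744 and FBgn0005614 were exactly equal on the control cell arrays, so their control spread was not measured. FBgn0000242 measured 8.87 and 8.31 in mutant cells and 5.37, 5.80 and 5.44 in control cells, with a difference of 0.13 ± 0.30 in embryos. Leaving out single arrays gave 0 to 2300 called contrasts. Groups of 2 or 3 arrays are too small for a search for outlying samples.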

How the results depend on the processing

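The 691 genes called became 5984 on the values as deposited (357 higher, 5627 lower), 92 without genes below the median level, 276 without genes of equal values, 395 in 1 fit with the embryos and 77 in a linear model without moderation. Leaving out 1 array gave 60 to 696. The 1235 genes past a log2 difference of 1 and an unadjusted p of 0.05 became 2840 as deposited and 376 without genes below the median level, with 1089 to 1747 when 1 array was left out. The 31 contrasts between cells and embryos became 1954 as deposited, 63 after quantile normalization, 75 after centring on the 75th percentile, 13 and 2 without genes below the 25th percentile and the median, and 0 to 2300 when 1 array was left out. The other alternatives stayed within 1.5 times these counts. The ttk difference crossed the threshold after quantile normalization (0.87), centring on the 75th percentile (0.89), with an intensity trend (0.83), a robust trend (0.83) and array weights (0.82), and ranged over 0.81 to 0.87 when 1 array was left out. With the replicate number as a block, 1358 genes were called (612 higher, 746 lower) and 1932 passed the study's rule. In that setting 0 contrasts were called (1000 at an unadjusted p of 0.05). However, the labels give no pairing, and the deviations of same-numbered arrays correlated at 0.13 and -0.38. The largest correlation, 0.559, was between mutant replicate 2 and control replicate 3, with -0.559 for mutant replicate 1 and that control array. The cause of the shifts in these counts was not tested beyond the smaller sets of genes or arrays. The counts for the Gene Ontology lists under other scalings, without control replicate 2 and without equal values were added after the data were seen. The precision is limited by the number of arrays, and no measure of signal over background was used.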
